A study of Mus musculus with 9 samples.

Results

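The genes of cholesterol and fatty acid metabolism were examined in mouse CD4+ T cells as a list of 34 named genes: the enzymes that build cholesterol, the proteins that sense and move it, the enzymes that make, desaturate and lengthen fatty acids, and genes of the sterol-exporting response. They were chosen by name, with earlier results of these data known. The expression table held a row for 33 of the 34 among its 25759 genes, and Mvd was not analysed here. All 33 passed the filter on low values that left 15126 genes tested. The study had 3 libraries in each of 3 groups, all from C57BL/6 mice of 8 to 12 weeks that carried a Foxp3GFP reporter, which marks regulatory T cells, and in every group the GFP-negative cells were kept. Activated BMPR1a/CD4cre cells came from mice in which Cre, driven by the Cd4 promoter in developing T cells, targets the bone morphogenetic protein receptor BMPR1a. Their lymph node and spleen cells were kept for 3 days with ConA, a T cell mitogen, at 2 ug/ml and bacterial LPS at 10 ng/ml, and CD4+ cells positive for CD44 and negative for CD62 were then sorted. Activated WT cells were treated and sorted in the same way. Naive WT cells were sorted without culture as CD44-negative, CD62-positive CD4+ cells, so culture, mitogen and sorting gate cannot be told apart in the comparison of activated with naive cells.

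Cells build cholesterol from acetyl-CoA through mevalonate, isoprenoids, squalene and a series of sterol intermediates. When membrane sterol is low, SCAP carries the SREBP factors from the endoplasmic reticulum to the Golgi for cleavage, and the freed factors switch on most of these enzymes and the fatty acid enzymes, while INSIG holds the complex back when sterol is plentiful. Oxysterols act through the liver X receptors (LXR), which raise the exporters ABCA1 and ABCG1 and the ubiquitin ligase MYLIP. T cells that leave rest and divide are known to raise lipid synthesis for new membrane.

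Levels are in FPKM, a fragment count scaled by transcript length and by library size, so genes can be set side by side. A fold change is the difference of group means of log2(FPKM + 1), with its standard error (SE); for genes at low levels it is smaller than the true change. A gene was called at a Benjamini-Hochberg adjusted p under 0.05, over all 15126 tested genes, in limma's moderated test. The T cell genes Cd3e and Cd4 were high in all 9 libraries, between 209 and 246 FPKM for Cd3e and between 280 and 353 FPKM for Cd4. Markers of other cells were present too. Cd8b1, of CD8 T cells, ran from 94.9 to 174 FPKM in the activated libraries, and Cd79b, of B cells, from 37.6 to 63.6 FPKM. Bmpr1a itself stood at 0.957, 1.93 and 1.2 FPKM in the activated BMPR1a/CD4cre libraries, against 2.16, 2.92 and 1.40 FPKM in the activated WT libraries. These ranges overlapped (p = 0.2 in a two-sided exact permutation test that cannot go below 0.1), so its level does not settle the genotype label. The targeted exon was not examined.

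In activated WT cells the list moved strongly, and mostly upward, relative to naive WT cells. Of the 33 genes, 22 rose, 5 fell and 6 did not pass the test. Over all tested genes, 52% were called in this comparison, 26.2% higher and 25.8% lower. The median log2 fold change of the 33 genes was 0.62, beside -0.01 over all tested genes. In 22 genes every activated WT library lay above every naive WT library and in 6 it lay below, beside 29.6% and 29.8% of all tested genes (59.4% in either direction). In bulk RNA, fewer cells of a type and less RNA per cell cannot be told apart.

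**Figure D1:**
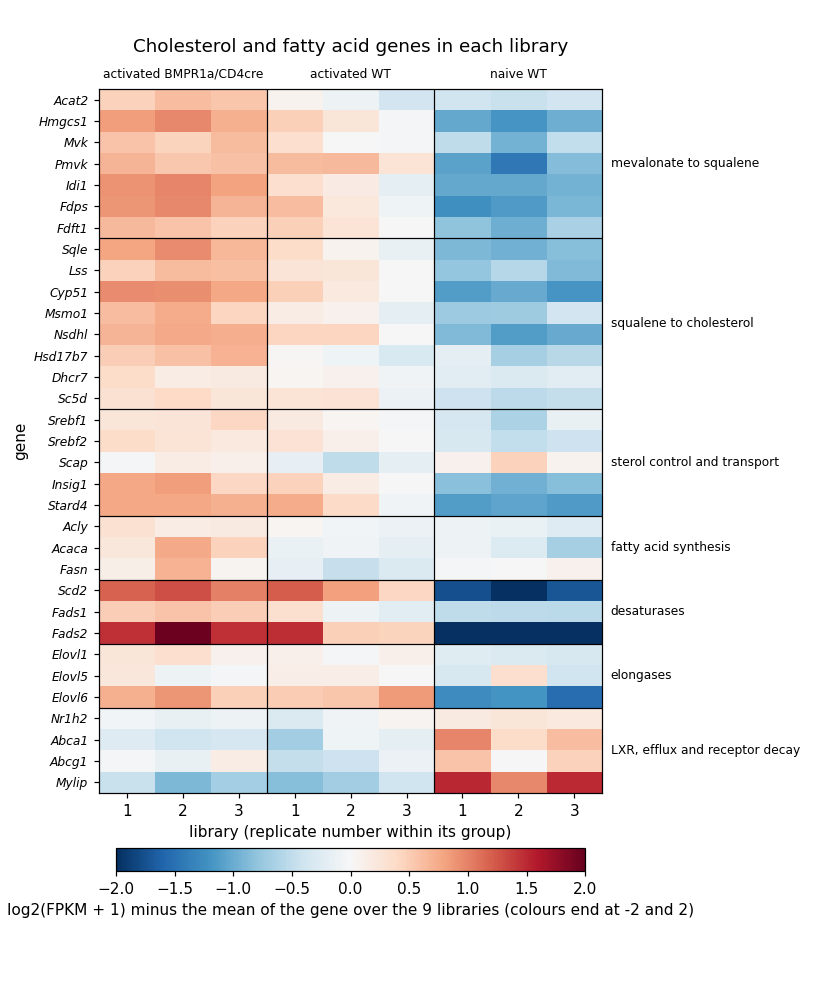
Level of each of the 33 genes in the 9 libraries, as log2(FPKM + 1) with the gene's mean over all libraries subtracted; rows are ordered by role and columns by group. Most cholesterol synthesis rows are low in the 3 naive WT libraries, and Mylip, Abca1, Abcg1 and Nr1h2 are high there.

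The first stretch of the cholesterol pathway, down to squalene, rose in 6 of its 7 measured genes, beside 26.2% of all tested genes. Pmvk, which phosphorylates phosphomevalonate, stood at 32.8, 33.0 and 25.2 FPKM in activated WT libraries and at 9.40, 7.11 and 10.9 FPKM in naive WT libraries (log2 fold change 1.64, SE 0.155, adjusted p = 0.000107). The groups lay far apart. Fdps, which makes farnesyl diphosphate, had 90.4, 68.1 and 54.8 FPKM in activated WT libraries, against 24.3, 26.2 and 30.6 FPKM in naive WT libraries (log2 fold change 1.34, SE 0.178, adjusted p = 0.000558). It had the highest activated WT mean of the 15 measured cholesterol synthesis genes of the list, and the first library was the highest of its group. Hmgcs1, the HMG-CoA synthase, reached 50.8, 43.2 and 35.1 FPKM in activated WT libraries, against 17.2, 15.3 and 17.8 FPKM in naive WT libraries (log2 fold change 1.29, SE 0.134, adjusted p = 0.000168). Here too the activated libraries stood well above the naive ones and fell off in the same order as for Fdps. Idi1, the isopentenyl diphosphate isomerase, had 29.6, 26.1 and 20.2 FPKM in activated WT libraries, against 10.8, 10.9 and 11.6 FPKM in naive WT libraries (log2 fold change 1.10, adjusted p = 0.00026). Fdft1, the squalene synthase (1.06, adjusted p = 0.000452), and Mvk, the mevalonate kinase (0.75, adjusted p = 0.00397), rose as well. The exception was Acat2, the cytosolic acetoacetyl-CoA thiolase of the first step, at 14.5, 12.8 and 10.3 FPKM in activated WT libraries and 10.2, 9.84 and 10.3 FPKM in naive WT libraries. Its groups overlapped and it did not pass the test (log2 fold change 0.27, adjusted p = 0.0779).

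From squalene to cholesterol, 7 of 8 genes rose, beside 26.2% of all tested genes. Cyp51, the lanosterol demethylase, stood at 34.7, 28.3 and 24.4 FPKM in activated WT libraries and at 10.8, 11.7 and 10.3 FPKM in naive WT libraries (log2 fold change 1.32, SE 0.122, adjusted p = 9.95e-05). Nsdhl, a sterol dehydrogenase of the demethylation complex, had 16.4, 16.3 and 11.8 FPKM in activated WT libraries, against 5.95, 4.91 and 5.37 FPKM in naive WT libraries (log2 fold change 1.29, SE 0.127, adjusted p = 0.000128). For both genes even the lowest activated library, replicate 3, stood far above the naive ones. Sqle, the squalene epoxidase, had 23.5, 18.8 and 16.1 FPKM in activated WT libraries and 9.18, 8.75 and 9.49 FPKM in naive WT libraries (log2 fold change 0.997, adjusted p = 0.000561). The other called genes were Lss, the lanosterol synthase (0.91), Msmo1, a sterol methyl oxidase (0.62), Sc5d, a sterol desaturase (0.62), and Dhcr7, the reductase of the last step (0.26). The call of Dhcr7 was lost without activated WT replicate 1, activated WT replicate 2 or naive WT replicate 2 (adjusted p up to 0.0745). Hsd17b7, a sterol ketone reductase, was the lowest of the 15 listed genes at 3.4, 3.07 and 2.51 FPKM in activated WT libraries and 2.84, 1.73 and 1.94 FPKM in naive WT libraries. These overlapped, and it did not pass the test (log2 fold change 0.34, adjusted p = 0.0844).

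Over the 15 measured cholesterol synthesis genes, 13 rose and none fell, beside 26.2% of all tested genes called higher and 25.8% lower. The median log2 fold change of these 15 genes was 0.997. Their summed level was 420.8, 368.3 and 298.7 FPKM in the activated WT libraries, against 172.1, 163.4 and 182.8 FPKM in the naive WT libraries. The activated WT libraries differed among themselves in step: replicate 3 was the lowest of its group in 15 of 15 genes and replicate 1 the highest in 12 of 15. The cause of this order was not tested.

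The SREBP genes and Scap moved less than most of the enzymes. Srebf2, the SREBP that acts mainly on cholesterol genes, had 79.8, 70.4 and 64.8 FPKM in activated WT libraries, against 51.8, 46.2 and 49.0 FPKM in naive WT libraries (log2 fold change 0.54, SE 0.0889, adjusted p = 0.00162). Srebf1, the SREBP more tied to fatty acid genes, had 64.4, 58.0 and 55.9 FPKM in activated WT libraries and 44.8, 36.1 and 51.0 FPKM in naive WT libraries (log2 fold change 0.44, SE 0.125, adjusted p = 0.0193). Both factors rose without overlap, Srebf1 by a narrow margin and without a call when activated WT replicate 1 was left out (adjusted p = 0.0663). Scap, the escort that senses sterol, went the other way, with 19.5, 15.2 and 19.2 FPKM in activated WT libraries and 23.4, 30.5 and 23.2 FPKM in naive WT libraries (log2 fold change -0.49, SE 0.132, adjusted p = 0.015). Every activated WT library lay below the naive ones. Insig1, which retains the SCAP complex and is itself an SREBP target, had 37.0, 29.3 and 26.5 FPKM in activated WT libraries, against 14.4, 13.2 and 14.3 FPKM in naive WT libraries (log2 fold change 1.08, SE 0.145, adjusted p = 0.000566). Stard4, a carrier of free cholesterol, had 27.2, 21.2 and 15.2 FPKM in activated WT libraries, against 6.83, 7.12 and 6.70 FPKM in naive WT libraries (log2 fold change 1.46, SE 0.172, adjusted p = 0.000313). Insig1 and Stard4 thus rose about as far as the enzymes, with the same order among the activated libraries.

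Since the cholesterol enzymes moved together, their promoters were searched for short motifs in the RefSeq table of GRCm38.p6, in the 250 bases before each gene's start and on both strands. The table had 34 windows for 27 of the 34 genes, Mvd included, and 13 of these were cholesterol synthesis genes. The sterol regulatory element TCACNCCAC was present in 1.05% of all 32851 promoters and, among the listed genes, in that of Hmgcs1. A form shortened after this result was seen, TCACNCCA, was present in 3.67% of all promoters and in those of Hmgcs1, Msmo1 and Srebf2. CCAAT, the letters bound by NF-Y, stood in 20 of the 34 windows, beside 33.8% of all promoters; counted by gene, with any window sufficing, these were 19 of 27 genes and 12 of 13 cholesterol synthesis genes. GGGCGG, the GC box, was in 24 of the 34 windows, beside 32.7% of all promoters. By gene it was in 21 of 27 and also in 12 of 13 cholesterol synthesis genes. CACGTG, the E-box, was in 7 of the 34 windows, beside 6.02%, and in 3 of 13 cholesterol synthesis genes. The shares of all promoters count windows, so they are not on the same footing as counts by gene. A match describes the letters and is no evidence of binding. Plus strands are given for Hmgcs1 (chr13:119690101-119690350), which holds the full element, for Srebf2 (chr15:82147019-82147180, without untranslated bases), which holds the short form, and for Mylip (chr13:45389492-45389741), the gene of the list that fell most, which holds CCAAT but neither form. Capitals mark TCACNCCA or CCAAT in either orientation, so CCAAT also reads ATTGG.
Hmgcs1: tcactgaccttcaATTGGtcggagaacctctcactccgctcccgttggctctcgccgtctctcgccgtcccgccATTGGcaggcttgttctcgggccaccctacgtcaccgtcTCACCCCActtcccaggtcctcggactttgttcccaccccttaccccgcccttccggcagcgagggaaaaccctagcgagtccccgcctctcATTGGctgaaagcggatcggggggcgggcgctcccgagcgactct
Srebf2: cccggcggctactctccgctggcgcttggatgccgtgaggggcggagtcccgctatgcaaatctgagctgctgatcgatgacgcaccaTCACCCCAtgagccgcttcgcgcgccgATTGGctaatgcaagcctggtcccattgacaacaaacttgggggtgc
Mylip: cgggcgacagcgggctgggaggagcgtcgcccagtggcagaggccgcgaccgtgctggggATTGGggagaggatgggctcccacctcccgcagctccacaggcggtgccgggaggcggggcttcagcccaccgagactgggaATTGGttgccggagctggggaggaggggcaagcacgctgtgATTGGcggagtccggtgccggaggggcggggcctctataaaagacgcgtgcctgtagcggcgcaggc
Hmgcs1 carried 1 short sterol motif and 3 CCAAT boxes, Srebf2 carried 1 of each, and Mylip carried 3 CCAAT boxes.

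The largest changes of the whole list were in fatty acid desaturation. Fads2, the first desaturase on the way to long polyunsaturated fatty acids, had 15.2, 7.16 and 6.94 FPKM in activated WT libraries, against 0.0709, 0.0995 and 0.0966 FPKM in naive WT libraries (log2 fold change 3.22, SE 0.274, adjusted p = 6.85e-05). It was near 0 in all naive libraries, and 1 activated library stood well above the others. Scd2, a stearoyl-CoA desaturase that makes monounsaturated fatty acids, had 166, 127 and 94.8 FPKM in activated WT libraries, against 20.3, 12.1 and 20.9 FPKM in naive WT libraries (log2 fold change 2.80, SE 0.25, adjusted p = 8.6e-05). Its activated level was the highest of all 33 genes. Fads1, the desaturase that follows Fads2, rose less (0.52, adjusted p = 0.00967).

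Among elongases the change lay with Elovl6, which lengthens saturated and monounsaturated chains. It had 12.4, 12.9 and 16.1 FPKM in activated WT libraries, against 2.96, 3.12 and 2.28 FPKM in naive WT libraries (log2 fold change 1.97, SE 0.145, adjusted p = 3.45e-05). The activated libraries were close to each other and replicate 3 was the highest, unlike in the cholesterol genes. Elovl1, for very long chains, rose by little (0.34, adjusted p = 0.00575). Elovl5, for polyunsaturated chains, did not pass the test (0.22, adjusted p = 0.367), with 1 naive WT library at 84.7 FPKM and the others at 53.0 and 50.6 FPKM. That library also had the highest sum of 8 granulocyte markers, 679.8 FPKM, against 56.51 and 111.5 FPKM in the other naive WT libraries; their part in the level was not tested.

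The enzymes that build the fatty acid chain itself did not pass the test. Acly, which supplies cytosolic acetyl-CoA, averaged 61.3 ± 3.38 FPKM in activated WT cells and 56.3 ± 3.41 FPKM in naive WT cells (SD, n = 3 each; limma adjusted p = 0.188). Acaca, the acetyl-CoA carboxylase, averaged 7.01 ± 0.305 FPKM in activated WT cells and 5.96 ± 1.34 FPKM in naive WT cells (limma adjusted p = 0.313). Fasn, the fatty acid synthase, had 24.7, 20.0 and 22.5 FPKM in activated WT libraries and 27.0, 27.9 and 29.6 FPKM in naive WT libraries (log2 fold change -0.32, adjusted p = 0.14). Its activated libraries all lay below the naive ones although the test was not passed.

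All 4 genes of the LXR and export side fell in activated WT cells, beside 25.8% of all tested genes called lower. Mylip, whose product marks lipoprotein receptors for degradation, had 5.02, 5.73 and 7.20 FPKM in activated WT libraries, against 29.9, 20.0 and 29.6 FPKM in naive WT libraries (log2 fold change -1.97, SE 0.192, adjusted p = 0.000125). Even the lowest naive library was far above the highest activated one. The exporter Abca1 had 1.47, 2.78 and 2.49 FPKM in activated WT libraries, against 6.94, 4.19 and 5.18 FPKM in naive WT libraries (log2 fold change -0.99, adjusted p = 0.00392). The exporter Abcg1 had 15.3, 15.9 and 19.8 FPKM in activated WT libraries, against 32.5, 21.4 and 30.0 FPKM in naive WT libraries (log2 fold change -0.67, adjusted p = 0.0108). Both exporters fell without overlap, as did 29.8% of all tested genes. Nr1h2, which encodes LXR beta, had 48.0, 56.0 and 60.9 FPKM in activated WT libraries and 66.9, 69.3 and 66.9 FPKM in naive WT libraries (log2 fold change -0.30, SE 0.0851, adjusted p = 0.0181), and its call was lost without naive WT replicate 2 (adjusted p = 0.0502). Markers of other cells also moved: 9 macrophage and monocyte markers summed to 1.872, 2.643 and 6.127 FPKM in activated WT libraries and to 22.16, 188.1 and 56.09 FPKM in naive WT libraries. Of these naive WT sums, Lyz2 alone was 14.8, 166 and 44.2 FPKM, while Cd14 and Fcgr1 overlapped between the groups. The part of such cells in these levels was not tested.

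**Figure D2:**
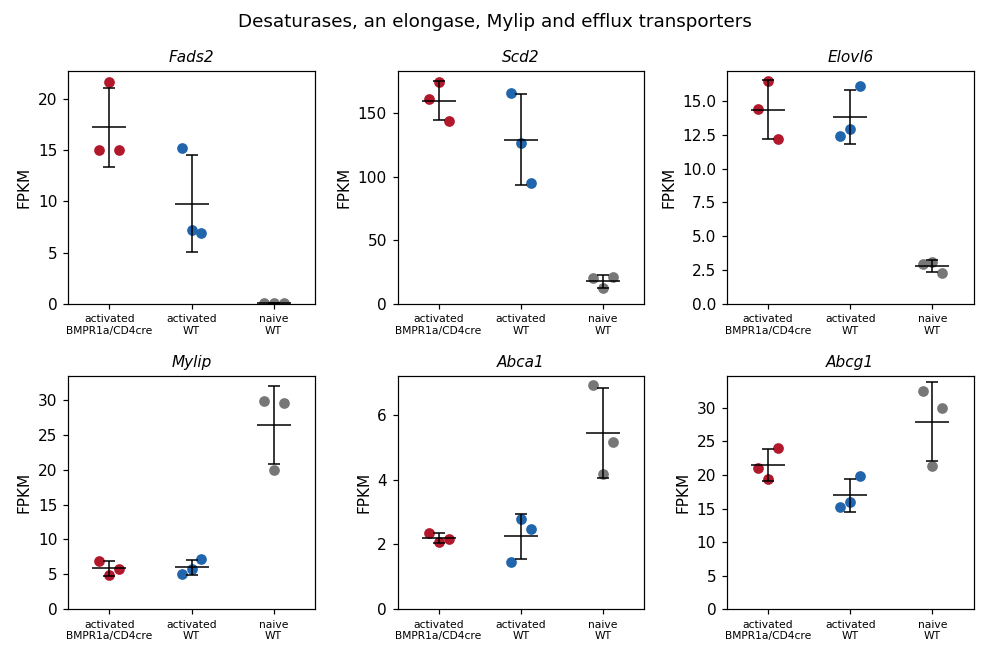
FPKM per library of Fads2, Scd2, Elovl6, Mylip, Abca1 and Abcg1 (linear axes from 0); points are libraries, long bars the mean of 3 and whiskers 1 SD. The desaturases and Elovl6 are low in naive WT cells, and Mylip is at or above 20.0 FPKM in naive WT cells and at or below 7.20 FPKM in both activated groups.

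A second comparison set activated BMPR1a/CD4cre cells against activated WT cells, with the groups taken as labelled. Here 6 of the 33 genes were higher in BMPR1a/CD4cre cells, all of them cholesterol synthesis enzymes, and none was lower. At an unadjusted p under 0.05 (limma), 20 of the 33 were higher and 0 lower. Of all 15126 tested genes, 3786 met this in either direction. Over all tested genes, 4.14% were called, 3.3% higher and 0.84% lower. The log2 fold change was above 0 in 30 of the 33 genes (28 after median-of-ratios and 27 after quantile scaling), with a median of 0.40 beside 0.06 over all tested genes. In 18 genes every BMPR1a/CD4cre library lay above every activated WT library, and in no gene did it lie below, beside 22.8% and 8.36% of all tested genes (31.2% in either direction).

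**Figure D3:**
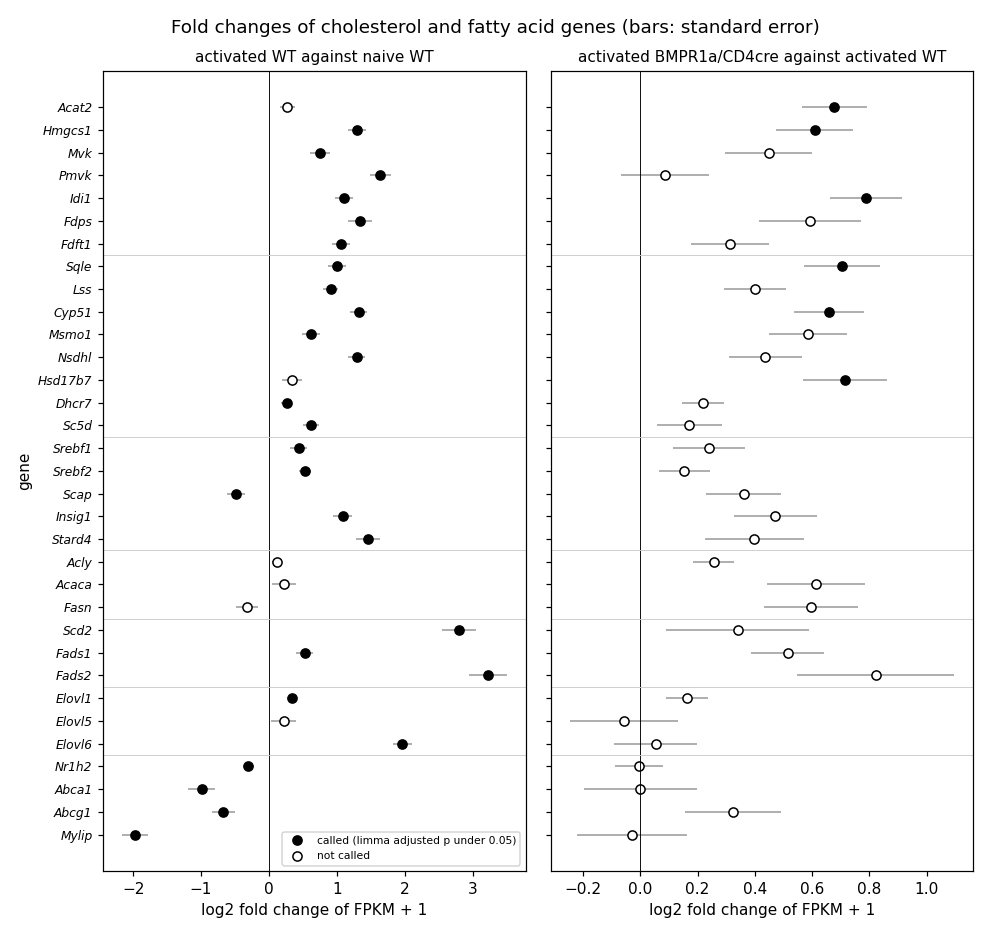
Log2 fold change with its SE for each of the 33 genes, in activated WT against naive WT cells and in activated BMPR1a/CD4cre against activated WT cells; filled symbols passed an adjusted p of 0.05. The first comparison spans -1.97 to 3.22, and the second lies almost wholly above 0 with 6 called genes.

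Idi1 showed the largest change among the called genes, at 44.0, 46.4 and 41.3 FPKM in activated BMPR1a/CD4cre libraries and 29.6, 26.1 and 20.2 FPKM in activated WT libraries (log2 fold change 0.79, SE 0.126, adjusted p = 0.0271). Hsd17b7 had 5.08, 5.54 and 6.00 FPKM in activated BMPR1a/CD4cre libraries, against 3.4, 3.07 and 2.51 FPKM in activated WT libraries (0.72, SE 0.147, adjusted p = 0.0424). Both were separated by a clear gap. Sqle had 31.7, 35.5 and 29.0 FPKM in activated BMPR1a/CD4cre libraries, against 23.5, 18.8 and 16.1 FPKM in activated WT libraries (0.70, SE 0.133, adjusted p = 0.0364). Acat2 had 19.2, 21.6 and 20.6 FPKM in activated BMPR1a/CD4cre libraries, against 14.5, 12.8 and 10.3 FPKM in activated WT libraries (0.68, SE 0.113, adjusted p = 0.0282). The BMPR1a/CD4cre libraries of Acat2 were tightly grouped, while the WT ones spread down to the naive level. Cyp51 had 48.2, 47.6 and 42.7 FPKM in activated BMPR1a/CD4cre libraries, against 34.7, 28.3 and 24.4 FPKM in activated WT libraries (0.66, SE 0.122, adjusted p = 0.0358). Hmgcs1 had 65.5, 71.3 and 60.0 FPKM in activated BMPR1a/CD4cre libraries, against 50.8, 43.2 and 35.1 FPKM in activated WT libraries (0.61, SE 0.134, adjusted p = 0.0491). In ratios of means the 6 genes were 1.52 to 1.85 times as high in BMPR1a/CD4cre cells. Acat2 and Hsd17b7 were the pair of pathway genes that had not passed the test between activated WT and naive WT cells.

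**Figure D4:**
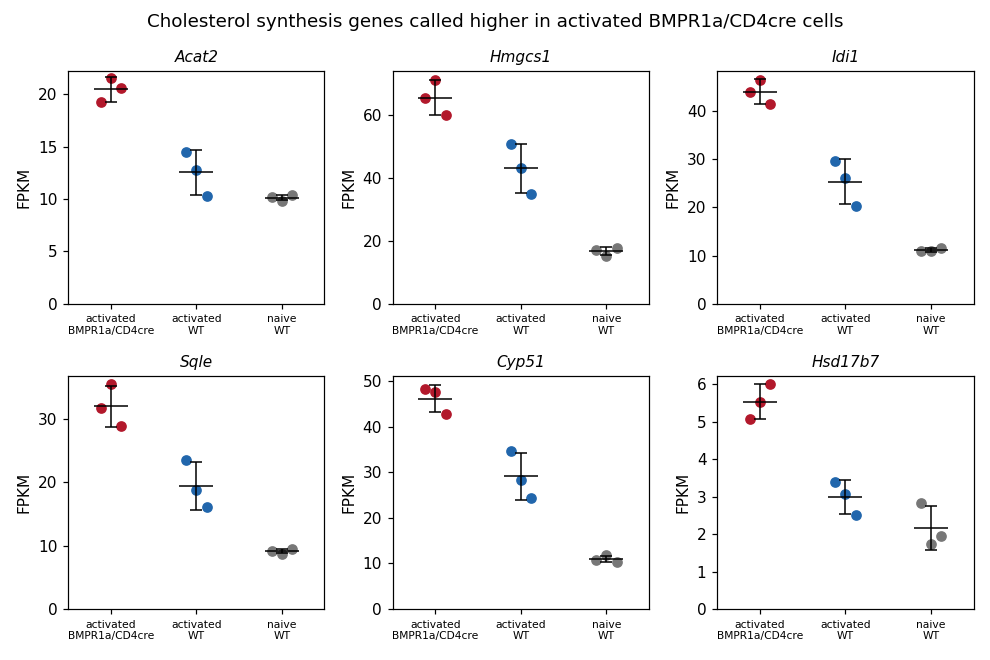
FPKM per library of the 6 cholesterol synthesis genes called higher in activated BMPR1a/CD4cre cells (linear axes from 0); points are libraries, long bars the mean of 3 and whiskers 1 SD. All BMPR1a/CD4cre points lie above all activated WT points in each panel, and within activated WT the third library is the lowest.

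The other 9 cholesterol synthesis genes did not pass the test, and all had positive values, though that of Pmvk was below 0 after quantile scaling. Msmo1 came nearest, at 32.8, 35.6 and 28.5 FPKM in activated BMPR1a/CD4cre libraries and 23.3, 22.3 and 18.1 FPKM in activated WT libraries (0.58, adjusted p = 0.0544). Fdps had 109, 115 and 93.9 FPKM in activated BMPR1a/CD4cre libraries, against 90.4, 68.1 and 54.8 FPKM in activated WT libraries (0.59, adjusted p = 0.095). In these, as in 12 of the 15 genes, the groups did not overlap. Of all tested genes, 22.8% lay wholly higher in this comparison (31.2% in either direction). Pmvk, which had risen most on activation, averaged 32.1 ± 1.69 FPKM in activated BMPR1a/CD4cre cells and 30.3 ± 4.42 FPKM in activated WT cells, with overlap (0.09, limma adjusted p = 0.786; SD, n = 3 each). The summed level of the 15 genes was 525, 543 and 484.3 FPKM in the activated BMPR1a/CD4cre libraries, against 420.8, 368.3 and 298.7 FPKM in the activated WT libraries.

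The calls of this comparison were sensitive to single libraries and to the scaling. Of 17 alternative settings, the call of Idi1 held in 11, of Acat2 in 10, of Sqle and Cyp51 in 6 each, of Hsd17b7 in 5 and of Hmgcs1 in 3. No member was called without activated BMPR1a/CD4cre replicate 2, without its replicate 3 or without activated WT replicate 2. In these fits 17, 18 and 16 members were higher at an unadjusted p under 0.05 (limma). Over all genes, 2781 of 15084, 2492 of 15080 and 2601 of 15087 then met this in either direction. Without naive WT replicate 1, 1 member was called, and 2, Idi1 and Acat2, without activated WT replicate 3 or after median-of-ratios scaling. Without activated WT replicate 3, the lowest of its group, the median log2 fold change of the cholesterol synthesis genes was 0.42, against 0.58 with all libraries, and it was 0.51 and 0.49 after median-of-ratios and quantile scaling.

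Some of these genes share sequence with others, and how reads were shared between copies is not given in the sources used here. Idi1 matched Gm13502 over 684 bases at 100% identity, and Gm13502 itself read 24, 24.1 and 21.2 FPKM in activated BMPR1a/CD4cre libraries and 17.0, 13.4 and 10.9 FPKM in activated WT libraries. Acat2 matched Acat3 over 1477 bases at 97.7% and the neighbouring Tcp1 over 445 bases at 98.65%. Acat3 had 16.3, 21.3 and 18.1 FPKM in activated BMPR1a/CD4cre libraries, against 17.6, 15.1 and 12.2 FPKM in activated WT libraries, with overlap (adjusted p = 0.271). Tcp1 stood far above Acat2, at 204.8, 265.4 and 246.7 FPKM in activated BMPR1a/CD4cre libraries and 217.4, 200.9 and 161.5 FPKM in activated WT libraries. These overlapped too (limma adjusted p = 0.289). The values of Idi1 and Acat2 are therefore uncertain. Cyp51 overlaps Akap9 on the other strand by 166 exonic bases and Hmgcs1 overlaps Gm48342 by 557, while Sqle and Hsd17b7 had no such copy or overlap. Fdps, Fdft1, Scd2, Acaca and Elovl6 also have near-identical copies, and Fdft1 shares 774 bases with Ctsb.

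In the 5 genes of sterol control and transport no difference between activated BMPR1a/CD4cre and activated WT cells passed the test. At an unadjusted p under 0.05 (limma) 2, Insig1 and Scap, were higher, beside 3786 of all 15126 tested genes in either direction. Srebf1 had 67.1, 67.6 and 76.2 FPKM in activated BMPR1a/CD4cre libraries, against 64.4, 58.0 and 55.9 FPKM in activated WT libraries (0.24, adjusted p = 0.278). Scap had 21.7, 24.4 and 23.6 FPKM in activated BMPR1a/CD4cre libraries, against 19.5, 15.2 and 19.2 FPKM in activated WT libraries (0.36, adjusted p = 0.142). These did not overlap, though by narrow margins. Srebf2 had 84.7, 79.0 and 75.3 FPKM in activated BMPR1a/CD4cre libraries, against 79.8, 70.4 and 64.8 FPKM in activated WT libraries (0.15, adjusted p = 0.331). Insig1 had 46.1, 47.8 and 35.7 FPKM in activated BMPR1a/CD4cre libraries, against 37.0, 29.3 and 26.5 FPKM in activated WT libraries (0.47, adjusted p = 0.1). Stard4 averaged 27.5 ± 0.571 FPKM in activated BMPR1a/CD4cre cells and 21.2 ± 5.99 FPKM in activated WT cells (0.40, limma adjusted p = 0.201; SD, n = 3 each). These 3 overlapped, each through the high first activated WT library.

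None of the 9 fatty acid genes passed the test between activated BMPR1a/CD4cre and activated WT cells. At an unadjusted p under 0.05 (limma) 5 were higher, beside 3786 of all 15126 tested genes in either direction. Fads1 came nearest, at 11.9, 12.5 and 11.8 FPKM in activated BMPR1a/CD4cre libraries and 10.4, 7.53 and 6.89 FPKM in activated WT libraries, without overlap (0.51, adjusted p = 0.0632). Acaca had 9.27, 13.9 and 11.0 FPKM in activated BMPR1a/CD4cre libraries, against 7.0, 7.32 and 6.71 FPKM in activated WT libraries (0.61, adjusted p = 0.0832). Fasn had 30.4, 45.7 and 28.9 FPKM in activated BMPR1a/CD4cre libraries, against 24.7, 20.0 and 22.5 FPKM in activated WT libraries (0.60, adjusted p = 0.0808). Acly had 78.0, 70.6 and 71.7 FPKM in activated BMPR1a/CD4cre libraries, against 64.9, 60.9 and 58.2 FPKM in activated WT libraries (0.26, adjusted p = 0.0825). In all 3 the groups did not overlap, beside 22.8% of all tested genes that lay wholly higher (31.2% in either direction). For Acaca and Fasn the second BMPR1a/CD4cre library was the highest. Fads2 had the largest value of the list but a wide error, at 15.0, 21.7 and 15.0 FPKM in activated BMPR1a/CD4cre libraries and 15.2, 7.16 and 6.94 FPKM in activated WT libraries (0.82, SE 0.274, adjusted p = 0.12). Scd2 had 161, 175 and 144 FPKM in activated BMPR1a/CD4cre libraries, against 166, 127 and 94.8 FPKM in activated WT libraries (0.34, adjusted p = 0.443). For both, the first activated WT library reached the BMPR1a/CD4cre range. Elovl6 averaged 14.4 ± 2.16 FPKM in activated BMPR1a/CD4cre cells and 13.8 ± 1.99 FPKM in activated WT cells (0.05, limma adjusted p = 0.872; SD, n = 3 each).

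On the export side none of the 4 genes passed the test between activated BMPR1a/CD4cre and activated WT cells, and none did at an unadjusted p under 0.05 (limma). Mylip had 6.92, 4.83 and 5.77 FPKM in activated BMPR1a/CD4cre libraries, against 5.02, 5.73 and 7.20 FPKM in activated WT libraries (-0.03, SE 0.192, adjusted p = 0.958). Nr1h2 had 56.2, 52.8 and 54.6 FPKM in activated BMPR1a/CD4cre libraries, against 48.0, 56.0 and 60.9 FPKM in activated WT libraries (-0.01, SE 0.0851, adjusted p = 0.99). Abca1 had 2.36, 2.06 and 2.17 FPKM in activated BMPR1a/CD4cre libraries, against 1.47, 2.78 and 2.49 FPKM in activated WT libraries (0.00, SE 0.198). All 3 overlapped, and a missed threshold does not show that the levels were equal. Abcg1 averaged 21.5 ± 2.35 FPKM in activated BMPR1a/CD4cre cells and 17.0 ± 2.47 FPKM in activated WT cells (0.32, limma adjusted p = 0.275; SD, n = 3 each).

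Against naive WT cells, activated BMPR1a/CD4cre cells had 26 of the 33 genes higher and 3 lower, in a comparison where genotype and activation differ together and that shares libraries with both others. Over all tested genes 56.9% were called, 31.8% higher and 25.1% lower. The groups did not overlap in 26 members that were higher and 3 that were lower, beside 35.2% and 28.7% of all tested genes (63.8% in either direction). All 15 cholesterol synthesis genes rose, including Acat2 (log2 fold change 0.95, adjusted p = 0.000256) and Hsd17b7 (1.06, adjusted p = 0.000557). Acaca (0.83) and Acly (0.38) were also called, at 1.91 and 1.30 times the naive means. Mylip (-2.0), Abca1 (-0.99) and Nr1h2 (-0.31) fell. Abcg1 (-0.35, adjusted p = 0.109), Scap (-0.13, adjusted p = 0.425), Fasn (0.28, adjusted p = 0.188) and Elovl5 (0.16, adjusted p = 0.493) did not pass the test.

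Outside the list, 14 further genes of cholesterol and isoprenoid synthesis were tested, and 4 rose and 3 fell in activated WT against naive WT cells. That share called, 50%, lay near the 52% of all tested genes, and the median log2 fold change was 0.01. Dhdds, of dolichol synthesis, rose by 0.70 on the log2 scale (adjusted p = 0.000407). Ggps1, which makes geranylgeranyl diphosphate, had 10.4, 10.6 and 10.8 FPKM in activated WT libraries, against 15.9, 16.8 and 15.5 FPKM in naive WT libraries (-0.56, adjusted p = 0.000284). Its activated libraries were close to each other and all below the naive ones.

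Of 19 genes of sterol sensing, uptake and storage, 4 rose and 6 fell in activated WT against naive WT cells, a share called of 52.63% that lay at the 52% of all tested genes, with a median log2 fold change of -0.11. Soat2, which esterifies cholesterol, had 8.55, 7.15 and 7.97 FPKM in activated WT libraries, against 0.296, 0.512 and 0.524 FPKM in naive WT libraries (2.62, adjusted p = 3.85e-05). Gramd1b, a sterol transporter at membrane contacts (1.62), and Npc2, the lysosomal cholesterol carrier (1.40), also rose. Erlin1, a protein of the degradation machinery for sterol sensors, was called between the activated groups, at 6.50, 7.40 and 5.57 FPKM in activated BMPR1a/CD4cre libraries and 3.37, 3.09 and 3.18 FPKM in activated WT libraries (0.82, SE 0.165, adjusted p = 0.0411). Every BMPR1a/CD4cre library was well above the WT ones, yet the call was lost without any 1 of the 6 activated libraries or naive WT replicate 1. It held in 6 of 17 alternatives (adjusted p up to 0.152). Of the 19 genes, Erlin1 was the 1 called here, 5.26% beside 4.14% of all tested genes.

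Of 19 other tested genes of fatty acid synthesis and activation, 8 rose and 5 fell in activated WT against naive WT cells, a share called of 68.42% beside 52% of all tested genes, with a median log2 fold change of 0.27. Scd1, the close relative of Scd2 with 95.51% identity over 623 bases, had 23.1, 15.6 and 18.7 FPKM in activated WT libraries, against 3.00, 0.245 and 9.33 FPKM in naive WT libraries (2.42, SE 0.642, adjusted p = 0.0143). Its naive libraries differed widely and in the order of their sums of 7 B cell markers, 59.3, 3.422 and 190.7 FPKM, and Scd2 was also lowest in naive replicate 2; their part in these levels was not tested. In the activated WT libraries those B cell sums were 144.1, 158 and 182.7 FPKM, and in the activated BMPR1a/CD4cre libraries 197.3, 134.4 and 203.3 FPKM. Acss2, which makes acetyl-CoA from acetate, was lower in activated BMPR1a/CD4cre cells, at 11.8, 8.30 and 8.09 FPKM, against 16.3, 17.8 and 17.6 FPKM in activated WT cells (-0.83, SE 0.137, adjusted p = 0.0282). Acss2 was the 1 gene of the 19 called between the activated groups, 5.26% beside 4.14% of all tested genes. Of the 19, 14 had a log2 fold change above 0, and 7 were higher and 2 lower at an unadjusted p under 0.05 (limma). Over all 15126 tested genes, 3786 met that threshold in either direction. The Acss2 call was lost without naive WT replicate 1, any activated WT replicate, or activated BMPR1a/CD4cre replicate 2 or 3. It held in 9 of 17 alternatives (adjusted p up to 0.112).

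Of 9 other genes of LXR signalling and sterol efflux, 5 fell and none rose in activated WT against naive WT cells, beside 25.8% of all tested genes called lower, with a median log2 fold change of -0.36. Apoe, a lipid-binding apolipoprotein, had 4.09, 4.25 and 5.06 FPKM in activated WT libraries, against 12.0, 31.8 and 26.1 FPKM in naive WT libraries (-2.05, adjusted p = 0.00148). Apoe is also abundant in macrophages, whose summed markers were higher in every naive WT library than in any activated one. Their part in its level was not tested. Arl4c (-1.50) and Abca7 (-0.51), known LXR-linked and export genes, fell too. Rxra, the partner receptor of LXR, had 2.19, 1.87 and 1.84 FPKM in activated BMPR1a/CD4cre libraries, 0.629, 0.901 and 0.739 FPKM in activated WT libraries and 3.08, 3.08 and 3.08 FPKM in naive WT libraries. It fell on activation (-1.22, adjusted p = 3.94e-05) and was higher in BMPR1a/CD4cre than in WT activated cells (0.76, SE 0.0924, adjusted p = 0.012). Between the activated groups the call held in 14 of 16 alternatives (adjusted p up to 0.0673). It was lost with the replicate block and in the 6 activated libraries alone. Rxra was the 1 gene of these 9 called between the activated groups, 11.11% beside 4.14% of all tested genes.

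Of 19 tested genes of mitochondrial fatty acid oxidation, the route that breaks fatty acids down, 10 rose and 3 fell in activated WT against naive WT cells, a share called of 68.42% beside 52% of all tested genes, with a median log2 fold change of 0.40. Acadl, the long-chain acyl-CoA dehydrogenase, had 61.1, 50.8 and 52.4 FPKM in activated WT libraries, against 24, 18.8 and 25.7 FPKM in naive WT libraries (1.23, adjusted p = 0.000238). Decr1 (0.90), Etfb (0.76) and Acads (0.73), of the same route, rose as well. Between activated BMPR1a/CD4cre and activated WT cells none of the 19 was called. At an unadjusted p under 0.05 (limma) 3 were higher and 0 lower, beside 3786 of all 15126 tested genes in either direction. CD8 T cell markers, which CD4+ cells should lack, summed to 219.6, 279 and 253.8 FPKM in activated BMPR1a/CD4cre libraries, 171.1, 146.9 and 230.4 FPKM in activated WT libraries and 18.25, 9.478 and 41.43 FPKM in naive WT libraries. Their part in the results above was not tested.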

How the data were processed

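RNA was sequenced from 9 libraries, 3 per group as the sample titles give them. The authors deposited 1 table of FPKM per gene and library. TopHat2, Cufflinks and Cuffdiff were used with build GRCm38, per the submitters' processing notes. Their versions, the annotation, the strand setting and the handling of reads with several matches are not stated there. FPKM here are fractional estimates and keep no read counts, so depth is unknown and no counting interval was computed. Between 12922 and 13395 genes per library reached 1 FPKM. Separate mice or cultures are not stated for the replicates, so p-values measure the spread between these libraries, which may be technical.

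Identifiers were matched to symbols for 24876 of 25759 rows. Genes averaging 0.5 FPKM or more in the 9 libraries were tested on log2(FPKM + 1) with limma 3.58.1 (R 4.3.3, empirical Bayes with trend), in 1 fit of the 3 groups, two-sided, with Benjamini-Hochberg adjustment over all 15126 genes. The fit was tested on simulated data. The members, gene lists, naming rule and tests were chosen with earlier results of these data known. Library values are given for genes called between the activated groups, for the 10 largest changes on activation and for the regulators; other listed genes with values given were added after their values were seen. From each further list up to 4 called genes per comparison were named. Some of these are not reported here. Near-identical copies share at least 95% identity over 300 bases. Deviations of same-numbered libraries from their group means were hardly correlated (r 0.0027 to 0.054). Such small values cannot show whether the numbers pair samples, and the fit did not pair them.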

Additional observations from a re-analysis of the deposited data

How the results depend on the processing

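The 17 alternatives were another pseudocount (0.1), no filter or a filter at a mean of 2 FPKM, 2 scalings, library quality weights, a replicate block, a fit of the 6 libraries compared, and each library left out. In activated WT against naive WT cells, 24 of 27 calls held in all 17; Dhcr7, Srebf1 and Nr1h2 were lost in at least 1, 4 further members were called in at least 1, and the count ran from 25 to 28 without 1 library. In activated BMPR1a/CD4cre against naive WT cells 28 of 29 held (Acly was lost), Elovl5 was -0.0387 after quantile normalization, and the count ran from 29 to 31. In activated BMPR1a/CD4cre against activated WT cells none of the 6 calls held in all 17. Their count was 2 with no filter, 2 with median-of-ratios scaling, 1 with quantile normalization, 19 with quality weights, 0 with the replicate block and 0 with the 6 libraries alone, and 0 to 7 without 1 library. At an unadjusted p under 0.05 (limma), 20 members were higher with the block and 21 in the 6 libraries. Over all genes, 3438 of 15126 and 3899 of 14923 met this in either direction. The calls over all genes in this comparison were 626, and 306, 324, 3851, 58 and 100 with median-of-ratios scaling, quantile normalization, quality weights, the block and the 6 libraries, and 64 to 1040 without 1 library; 79.71% were higher, against 54.25% and 56.48% after the 2 scalings. Adjusted p over the alternatives ran from 0.00505 to 0.095 for Idi1 and from 0.0111 to 0.159 for Hmgcs1. The causes were not tested. Uncalled genes near 0 between the activated groups changed sign. After median-of-ratios scaling Elovl6 was -0.0189 and Abca1 -0.0525; after quantile normalization Pmvk was -0.00941, Elovl6 -0.0432 and Abca1 -0.0419; with quality weights Pmvk was -0.00145 and Abca1 -0.112. Without 1 library, Pmvk ran from -0.0363 to 0.150, Elovl5 from -0.151 to 0.0118, Elovl6 from -0.0455 to 0.161, Nr1h2 from -0.0978 to 0.0713, Abca1 from -0.185 to 0.122 and Mylip from -0.141 to 0.0928. Whether same-numbered libraries are paired was not settled. With the block the calls of members in the other comparisons were 27 and 29. The unknown depth limits low genes most, such as Hsd17b7 and Abca1.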
